A study of Homo sapiens with 5 samples.

Results

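Centrosome and centriole genes were followed in RPE1 cells treated with doxorubicin. They were taken from the count table by name, as symbols made of CEP and a number (37 genes) or as PCNT, CDK5RAP2, STIL, SASS6, NIN, CNTROB, CENPJ, ODF2, PCM1 and NEDD1 (10 genes). This gave 47 of the 26485 genes of the table, and 46 of them passed the filter on low counts that left 14187 genes for testing. The gene that did not pass was CEP295NL, with 4 and 12 reads in the DMSO libraries and 8, 1 and 8 in the doxorubicin libraries. CEP43 and CEP20 stand in the table under the older symbols FGFR1OP and FOPNL and were counted with the other genes of the pathway. RPE1 is an established, immortalized human retinal pigment epithelial line, and all libraries were from wild-type cells. Doxorubicin is an anthracycline that intercalates into DNA and traps topoisomerase II, leaving DNA breaks. Poly-A RNA was sequenced from 2 libraries of cells kept in DMSO, 2 libraries at 0.2 μM doxorubicin and 1 library at 0.34 μM, all for 18 h. These doses are those of the sample titles, while the treatment text gives 200 and 340 μM. By the study's methods the libraries of a treatment are biological replicates, with both doses taken as 1 doxorubicin group, and 0.34 μM has no replicate of its own.

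The centrosome consists of a pair of centrioles surrounded by pericentriolar material, from which microtubules are nucleated. Once per cell cycle a new centriole forms beside each old one: the kinase PLK4, placed by CEP152 and CEP192, recruits STIL and SASS6, which build the cartwheel at the base of the new centriole, and CENPJ, CEP135 and CEP295 then take part in its elongation and conversion. Older centrioles carry distal and subdistal appendages and can template a primary cilium, which RPE1 cells form when they leave the cell cycle. Several of these genes are transcribed most strongly in cycling cells, while others serve the cilium of resting cells.

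Libraries held between 23773061 and 36725345 reads assigned to genes, with normalization factors between 0.975 and 1.04. Levels are given as CPM, read counts divided by the TMM-scaled library size. The treated libraries were clearly marked by genes outside the list: 7 of 8 p53 targets passed the test as higher, with CDKN1A, the cyclin-dependent kinase inhibitor p21, at a log2 fold change of 3.39 and MDM2 at 2.19. All 10 of the G2 and mitosis genes examined passed as lower, with CCNB1 at -3.87 and TOP2A at -2.75, and 8 of 10 G1/S genes did so. Of 11 genes of the pigment epithelium, 6 or 7 had at least 10 reads in each library. Among the visual cycle and pigment genes were the lowest, with 3 to 8 reads of RPE65, 0 to 3 of RLBP1, 0 to 5 of TYR and 1 to 7 of TYRP1, while OTX2, MITF, KRT8 and KRT18 were expressed. Of the 7 genes of this list that could be tested, edgeR called 0 (4 at an unadjusted p of 0.05) and DESeq2 called 2 higher, KRT8 and PMEL. In 4 of the 7 every treated library lay above both DMSO libraries, a pattern of 24.3% of all tested genes. Of 7 leukocyte and endothelial genes, CD3E had 0 reads, CD14 at most 2 and CD68 between 2136 and 2777, and PTPRC had 5 and 7 reads in DMSO and 25, 53 and 72 after doxorubicin (edgeR adjusted p = 0.0212, DESeq2 adjusted p = 0.000571). Their summed level was 101 and 93.9 CPM in DMSO and 84.6, 114 and 79.7 CPM after treatment, nearly all of it CD68, and the part of these genes in the results was not tested. The summed level of 8 fibroblast genes was 939 and 542 CPM in DMSO and 818, 489 and 719 CPM after doxorubicin, so it differed more between replicates than between treatments.

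The question was how doxorubicin altered the transcripts of the centrosome. Most of them were less abundant after treatment: 38 of 46 tested genes had a negative log2 fold change, 14 passed edgeR's quasi-likelihood test at an adjusted p of 0.01 as lower, and 0 passed as higher. The share of all tested genes that passed as lower was 2.73%, and the share that passed as higher was 1.29%. The 14 genes called lower fell by 2.13-fold to 14.6-fold. The median log2 fold change was -0.92 over the 46 genes and 0.01 over all genes tested. The sum of all 47 genes was 2451 and 2419 CPM in DMSO and 1381, 1413 and 1364 CPM after doxorubicin, 56.9% of the DMSO mean. Without CEP55, the gene with the largest fall, it was 62.6%.

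In 34 genes every doxorubicin library lay below both DMSO libraries, in 4 every one lay above, and in 8 the groups overlapped. Over all tested genes these patterns made up 23.4% and 24.3%. At an unadjusted p of 0.05, 32 genes were lower and 3 higher, against 2209 and 2159 of all 14187 genes tested. DESeq2 called 27 of the 46 genes lower and 1, CEP170B, higher, against 7.72% and 6.37% of all genes it tested. Limma voom called 13 lower and 0 higher, against 367 and 159 of all 14187. The number called by edgeR rested on each library, since 2 genes remained when DMSO replicate 1 was left out, 0 without DMSO replicate 2 (33 at an unadjusted p of 0.05), 3 without 0.2 μM replicate 1, 4 without 0.2 μM replicate 2 and 3 without the 0.34 μM library. The median log2 fold change stayed between -0.98 and -0.89 in those 5 fits. CEP55 and STIL were called in 4 of them, CENPJ in 3, CEP128 in 1 and the other 10 genes in 0. Cell cycle genes moved with these transcripts: the summed level of the 10 G2 and mitosis genes was 3610 and 3427 CPM in DMSO and 274, 351 and 222 CPM after doxorubicin, and that of the 10 G1/S genes was 744 and 1399 CPM against 164, 207 and 126 CPM. Their part in the result was not tested. From bulk RNA alone, fewer cells of a given cycle phase and less RNA per cell cannot be told apart. By flow cytometry, the study reports a larger share of cells in G2 or mitosis after doxorubicin than in the control.

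**Figure D1:**
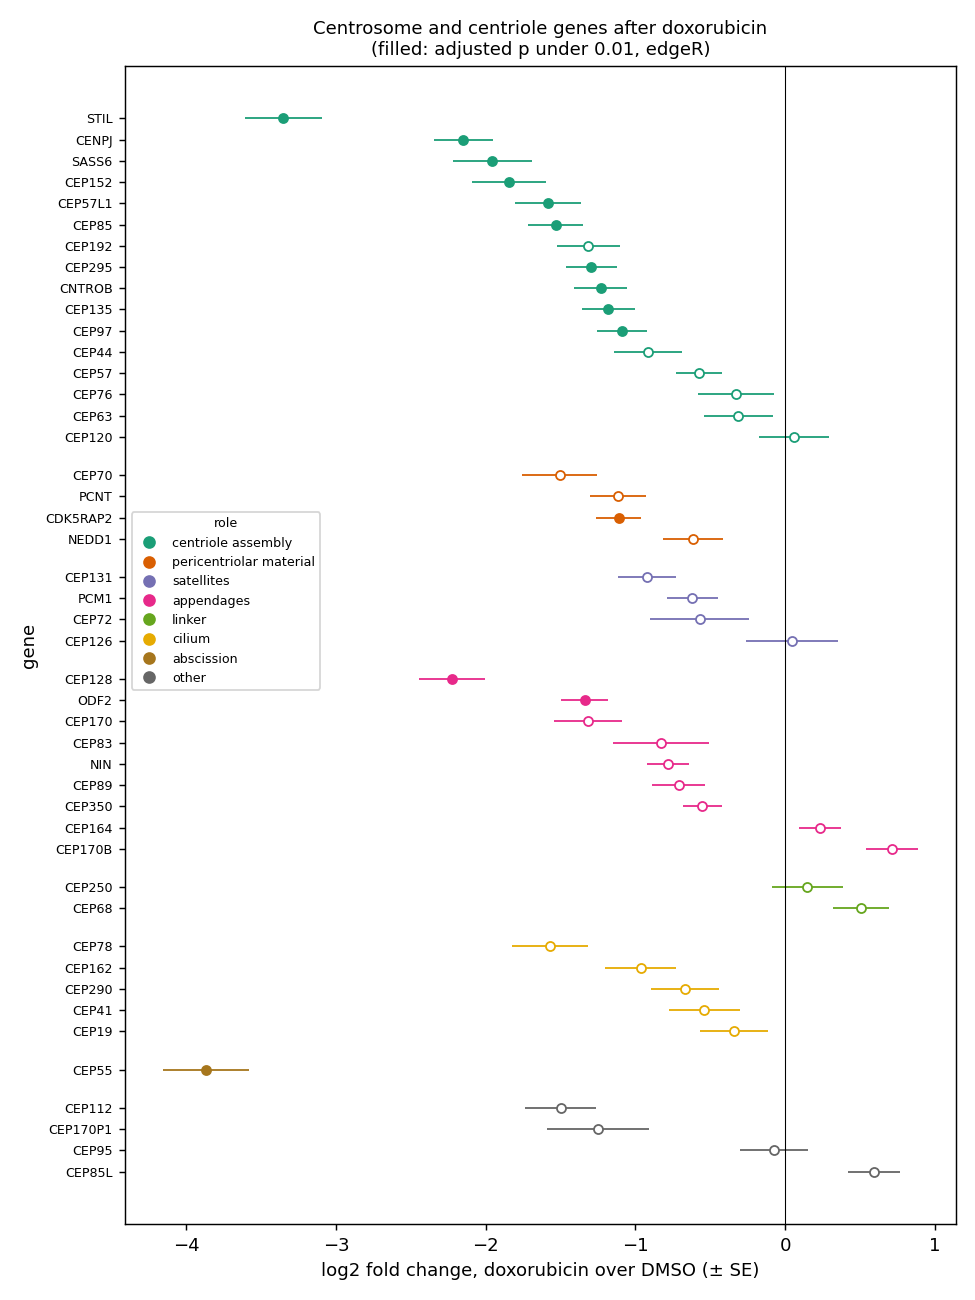
Log2 fold change (doxorubicin minus DMSO) of all but 1 of the 46 tested centrosome and centriole genes, grouped by role, with bars of 1 standard error and filled points for genes past the adjusted p of 0.01. The filled points are all left of 0 and gather among the centriole assembly genes, where 10 of 16 are filled, while the satellite, linker and cilium groups have no filled point in this edgeR test.

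Genes of centriole assembly made up most of the calls. Of 16 tested, edgeR called 10 lower and 0 higher, against 2.73% and 1.29% of all genes tested. The log2 fold change was negative in 15 and positive in 1, with a median of -1.26. DESeq2 called 12 lower and limma voom 9. Their summed level was 472 and 470 CPM in DMSO and 212, 226 and 205 CPM after doxorubicin, which is 45.5% of the DMSO mean.

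STIL, CENPJ and SASS6 showed the largest falls of this group. STIL, which brings SASS6 to the site of assembly, was at 44.1 and 47.3 CPM in DMSO and at 4.79, 5.53 and 3.14 CPM after doxorubicin. It fell 10.2-fold (log2 fold change -3.35, SE 0.26, edgeR adjusted p = 0.00106), and the lowest DMSO library lay far above the highest treated one. STIL covers 47250139 to 47314896 of chromosome 1 (GRCh38), where no other gene is annotated. SASS6, whose rings of dimers set the symmetry of the cartwheel, was at 14.9 and 11.8 CPM in DMSO and at 3.71, 3.99 and 2.62 CPM after treatment. It fell 3.88-fold (log2 fold change -1.96, SE 0.27, edgeR adjusted p = 0.00656), but was not called in any of the 5 fits that left out 1 library. CENPJ, which binds tubulin and governs centriole length, was at 29.6 and 26.6 CPM in DMSO against 6.07, 7.36 and 5.59 CPM, a 4.44-fold fall (log2 fold change -2.15, SE 0.20, edgeR adjusted p = 0.00163). In all 3 genes, as in every called gene of the list, each treated library lay below both DMSO libraries, which adds no support to the calls.

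The scaffolds that place PLK4 were both lower in every treated library. CEP152 was at 20.3 and 16.8 CPM in DMSO and at 5.92, 3.87 and 5.68 CPM after doxorubicin (log2 fold change -1.84, SE 0.25, edgeR adjusted p = 0.0065). CEP192, its partner and also a pericentriolar scaffold, was at 46.5 and 65.4 CPM against 22.8, 25.4 and 19.3 CPM, and its log2 fold change of -1.31 (SE 0.21) narrowly missed the threshold (edgeR adjusted p = 0.0108). The spread of CEP192 between the DMSO libraries was wider than that of CEP152 in proportion to its level. CEP85, which binds STIL, fell 2.89-fold from 23.7 and 29.1 CPM to 9.59, 8.27 and 9.53 CPM (edgeR adjusted p = 0.00422).

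Further called genes of the group fell by 2.13-fold to 3.00-fold. CEP295, which acts in the conversion of new centrioles into centrosomes, was at 35.4 and 31.6 CPM in DMSO and at 15.2, 13.3 and 12.4 CPM after treatment, a 2.46-fold fall (edgeR adjusted p = 0.0058). CEP135, a protein of the cartwheel and proximal centriole wall, went from 23.0 and 21.9 CPM to 9.51, 11.02 and 9.18 CPM (edgeR adjusted p = 0.00895). CNTROB, which encodes the daughter centriole protein centrobin, went from 54.3 and 48.0 CPM to 23.2, 18.2 and 23.9 CPM (edgeR adjusted p = 0.00808). These 3 genes had log2 fold changes between -1.30 and -1.18, close to each other. CEP97, which caps the centriole with CCP110, had the weakest fall that passed, from 29.9 and 36.2 CPM to 16.4, 14.8 and 15.3 CPM (log2 fold change -1.09, SE 0.17, edgeR adjusted p = 0.00965). CEP57L1, a paralog of CEP57, fell 3.00-fold from 20.2 and 15.001 CPM to 6.496, 5.74 and 5.37 CPM (edgeR adjusted p = 0.00694). Among the genes of this group that did not pass, CEP44 had a log2 fold change of -0.92, CEP57 of -0.58, CEP76 of -0.33, CEP63 of -0.31 and CEP120 of 0.06, and the sign for CEP63 and CEP120 was not the same under every processing alternative.

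**Figure D2:**
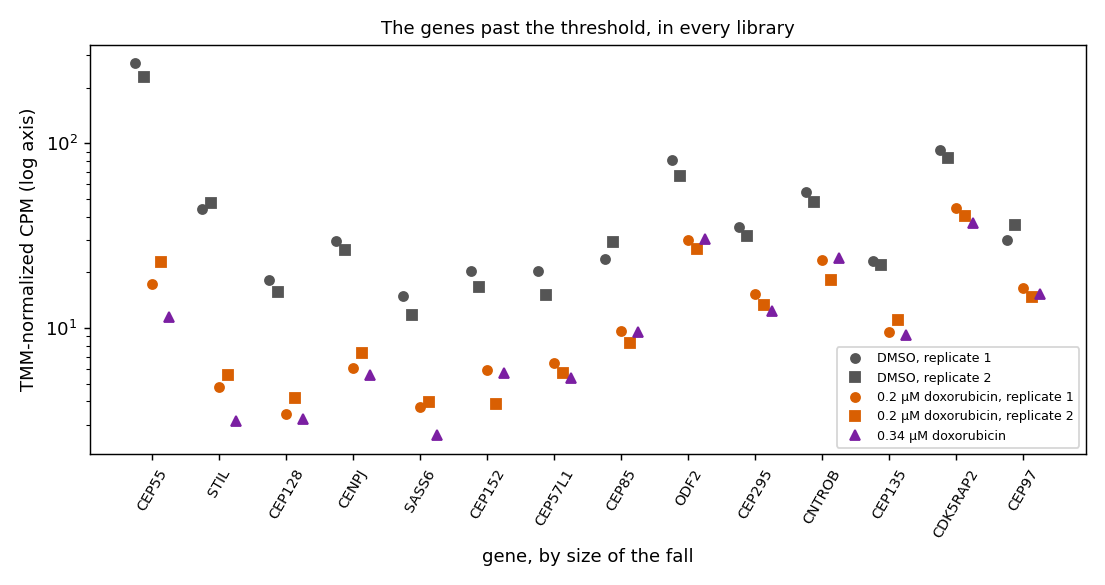
Level of the 14 genes called lower in each of the 5 libraries, in CPM on a log axis, with a separate marker for DMSO, 0.2 μM and 0.34 μM doxorubicin. In each gene the 3 doxorubicin points lie below both DMSO points, and the gap is widest for CEP55 and STIL.

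CEP55, an organizer of abscission at the midbody that is recruited late in mitosis, fell more than any other gene of the list. It was at 271 and 230 CPM in DMSO and at 17.3, 22.7 and 11.5 CPM after doxorubicin, a 14.6-fold fall (log2 fold change -3.87, SE 0.29, edgeR adjusted p = 0.000931). The groups were far apart, and the log2 fold change stayed between -4.12 and -3.64 when single libraries were left out, with the highest adjusted p at 0.0119. CEP55 covers 93496612 to 93529092 of chromosome 10 (GRCh38), within which RNA5SP323 is also annotated.

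The promoters of the 4 genes with the largest falls are shown because mitotic and S-phase genes often carry CHR, E2F and CCAAT elements close to the start. Each sequence holds the 150 bases before the start that RefSeq gives (GRCh38.p14), 5′ to 3′ on the strand of the gene, with matches to the searched letters in capitals.
CEP55 chr10:93496462-93496611 (plus strand): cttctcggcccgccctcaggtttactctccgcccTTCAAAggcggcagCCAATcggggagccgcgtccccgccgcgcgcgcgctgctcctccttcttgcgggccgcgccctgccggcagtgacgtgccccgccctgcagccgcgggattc
STIL chr1:47314148-47314297 (minus strand): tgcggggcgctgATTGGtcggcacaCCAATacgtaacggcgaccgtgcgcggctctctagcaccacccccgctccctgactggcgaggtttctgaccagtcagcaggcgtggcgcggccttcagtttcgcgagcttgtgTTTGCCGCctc
CEP128 chr14:80941739-80941888 (minus strand): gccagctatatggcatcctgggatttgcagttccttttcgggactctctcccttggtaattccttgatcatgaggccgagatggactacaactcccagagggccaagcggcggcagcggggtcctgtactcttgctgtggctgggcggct
CENPJ chr13:24922862-24923011 (minus strand): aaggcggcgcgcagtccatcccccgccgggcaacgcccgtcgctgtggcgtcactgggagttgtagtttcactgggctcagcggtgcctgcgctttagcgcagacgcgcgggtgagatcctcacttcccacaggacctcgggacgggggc
In CEP55 the capitals mark a CHR match on the reverse strand and then a CCAAT match, and a further CHR match on the reverse strand crosses the start itself and is not shown. In STIL they mark a pair of CCAAT matches, the first on the reverse strand, and an E2F match close to the start. CEP128 and CENPJ, listed by RefSeq as CPAP, had no match in the bases shown. For STIL, CEP128 and CENPJ the start used lies inside the span annotated for the gene, so longer transcripts begin upstream of it.

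The search covered 300 bases, 250 before and 50 after the start, on both strands, and found a promoter for 40 of the 47 genes, all 14 called genes included. Genes without one included CEP78, CEP170B, CEP170P1, CEP250, CEP295NL and PCM1. The CHR letters TTTGAA or TTTAAA stood within 100 bases of the start in 4 of 14 genes called lower (28.6%), in 5 of the other 26 (19.2%) and in 11.3% of all 27305 promoters. The called genes with such a match were CEP55, CEP295, CEP135 and CDK5RAP2. An E2F match (TTTCCCGC, TTTCGCGC, TTTGCCGC or TTTGGCGC) stood in 2 of the 14 (14.3%), STIL and SASS6, in 5 of the other 26 (19.2%) and in 3.3% of all promoters. CCAAT was found in 7 of 14 (50%), 12 of 26 (46.2%) and 35.7% of all. The shares in called and other genes of the list were thus close for E2F and CCAAT, and the numbers are small. Matches of different motifs did not overlap in these genes. A match of letters is a description and not a bound site.

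Pericentriolar material genes were all lower in each treated library than in both DMSO libraries, a pattern of 23.4% of all tested genes. Of these 4 genes, 1 passed the test (3 with DESeq2). Their median log2 fold change was -1.12, and their sum after doxorubicin was 49.8% of that in DMSO. CDK5RAP2, which anchors and activates gamma-tubulin complexes, fell 2.16-fold from 92.3 and 83.5 CPM to 44.5, 40.5 and 36.9 CPM (log2 fold change -1.11, SE 0.15, edgeR adjusted p = 0.00622). PCNT, the large scaffold pericentrin, had the same size of change but more spread: it was at 72.2 and 83.6 CPM in DMSO and at 41.8, 29.4 and 36.5 CPM after treatment (log2 fold change -1.12, SE 0.19, edgeR adjusted p = 0.0130). CEP70, which binds gamma-tubulin, was at 36.5 and 29.6 CPM against 11.02, 15.1 and 8.85 CPM (log2 fold change -1.51, SE 0.25, edgeR adjusted p = 0.0127). NEDD1, which targets the gamma-tubulin ring complex to centrosome and spindle, changed least of the 4, with 74.8 and 63.3 CPM in DMSO and 41.5, 55.3 and 38.5 CPM after doxorubicin (log2 fold change -0.61, SE 0.20, edgeR adjusted p = 0.0882).

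Of 9 appendage genes, 7 were lower and 2 higher in every treated library than in both DMSO libraries. These patterns made up 23.4% and 24.3% of all tested genes. The median log2 fold change of the 9 was -0.78. By edgeR and limma voom 2 of the 9 were called lower, in edgeR ODF2 and CEP128, and by DESeq2 6 lower and 1 higher. ODF2, needed for the appendages of the mother centriole, was at 80.8 and 66.3 CPM in DMSO and at 29.9, 26.9 and 30.4 CPM after doxorubicin, a 2.53-fold fall (edgeR adjusted p = 0.00396). CEP128, a subdistal appendage protein that depends on ODF2, fell 4.68-fold from 18.1 and 15.6 CPM to 3.44, 4.16 and 3.22 CPM (log2 fold change -2.23, SE 0.22, edgeR adjusted p = 0.00211). Both genes overlap others in the annotation (ODF2-AS1 for ODF2, HMGN2P2 and TSHR for CEP128), and whether the counting used strand is not stated. NIN, the subdistal anchor ninein, was at 111 CPM in both DMSO libraries and at 61.6, 71.4 and 60.7 CPM after treatment, a small and even difference that did not pass (log2 fold change -0.78, SE 0.14, edgeR adjusted p = 0.0159).

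CEP164, the distal appendage protein that recruits TTBK2 for ciliogenesis, lay on the other side. It was at 55.3 and 52.9 CPM in DMSO and at 60.6, 63.0 and 67.2 CPM after doxorubicin, with every treated library above the DMSO pair and no call (log2 fold change 0.23, SE 0.14, edgeR adjusted p = 0.302). CEP170B had the highest log2 fold change of the 46 genes. It was at 86.2 and 100.3 CPM in DMSO and at 145, 137 and 176 CPM after treatment (log2 fold change 0.71, SE 0.17, edgeR adjusted p = 0.0403), and DESeq2 called it higher (adjusted p = 0.00515). Its paralog CEP170, a subdistal appendage protein, was at 297 and 462 CPM against 147, 177 and 133 CPM (log2 fold change -1.32, SE 0.23, edgeR adjusted p = 0.0143), with the widest gap between DMSO libraries of the 9 genes. Reads of CEP170 may be shared with the pseudogene CEP170P1, which was at 14.2 and 30.6 CPM in DMSO and at 9.24, 11.3 and 7.85 CPM after doxorubicin.

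In the satellite, linker and cilium groups edgeR and limma voom called 0 genes, while DESeq2 called CEP131 among the satellites (adjusted p = 0.000795) and CEP78 and CEP162 among the cilium genes lower. Satellites are granules around the centrosome built on PCM1, which was at 223 and 169 CPM in DMSO and at 121, 138 and 124 CPM after treatment (log2 fold change -0.62, SE 0.17, edgeR adjusted p = 0.0567). The median of the 4 satellite genes was -0.60, and 2 were lower at an unadjusted p of 0.05. Of the linker that ties the centrioles together in interphase, the list held CEP250 and CEP68. Other linker genes are given with the pathway below. CEP250, also known as C-Nap1, was at 134 and 85.7 CPM in DMSO and at 138, 100.3 and 127 CPM after doxorubicin, so its groups overlapped (log2 fold change 0.15, SE 0.24, edgeR adjusted p = 0.716). CEP68 was at 22.2 and 18.7 CPM against 27.6, 25.9 and 33.6 CPM, without overlap but without a call (log2 fold change 0.51, SE 0.19, edgeR adjusted p = 0.126). The sum of CEP250 and CEP68 after treatment was 116% of that in DMSO. DMSO replicate 1 alone (156 CPM) already lay within the range of the treated libraries (126 to 166 CPM).

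The 6 cilium genes had a median log2 fold change of -0.60. CEP290, a transition zone protein whose loss causes ciliopathies, was at 59.01 and 36.9 CPM in DMSO and at 31.5, 32.3 and 26.9 CPM after treatment (log2 fold change -0.67, SE 0.23, edgeR adjusted p = 0.100). CEP78 was at 19.8 and 30.6 CPM against 7.15, 10.1 and 8.16 CPM (log2 fold change -1.57, SE 0.26, edgeR adjusted p = 0.0117), the largest negative value among genes that did not pass. Of the 4 tested genes with no assigned role, CEP85L, at 18.2 and 15.1 CPM in DMSO and 27.0, 24.8 and 23.7 CPM after treatment, was above 0 (log2 fold change 0.60, SE 0.17, edgeR adjusted p = 0.0680), and CEP112 was below it (-1.50, SE 0.24, edgeR adjusted p = 0.0107).

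The threshold of 0.01 ran through a dense part of the list. Just inside it were CEP97 (adjusted p = 0.00965) and CEP135, with log2 fold changes of -1.09 and -1.18. Just outside, by edgeR's adjusted p, were CEP112, CEP192, CEP78, CEP70 and PCNT, with log2 fold changes from -1.57 to -1.12, which is as large as or larger than the change of CEP97. A total of 20 genes that were not called had all treated libraries below both DMSO libraries. Over all tested genes, called or not, this pattern made up 23.4%.

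The ratios between paralogs lay apart in treated and DMSO libraries. The log2 ratio of CEP170 to CEP170B counts was 1.79 and 2.20 in DMSO and 0.01, 0.37 and -0.41 after doxorubicin, a difference of -2.00. That of CEP85 to CEP85L was 0.38 and 0.95 in DMSO and -1.49, -1.58 and -1.31 after treatment, a difference of -2.13. For CEP57 and CEP57L1 it was 1.05 and 1.62 in DMSO and 2.16, 2.49 and 2.35 after treatment, a difference of 1.00. In all 3 pairs the groups did not overlap, and the exact two-sided permutation p was 0.1, the smallest that 2 against 3 libraries allow. The share for other gene pairs was not computed. Of single tested genes, 23.4% lay wholly below DMSO and 24.3% wholly above. CEP85 and CEP57L1 are among the called genes, so these ratios in part restate changes given above. These ratios do not depend on library scaling, but they show unequal change only, and CEP170 may share reads with CEP170P1.

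**Figure D3:**
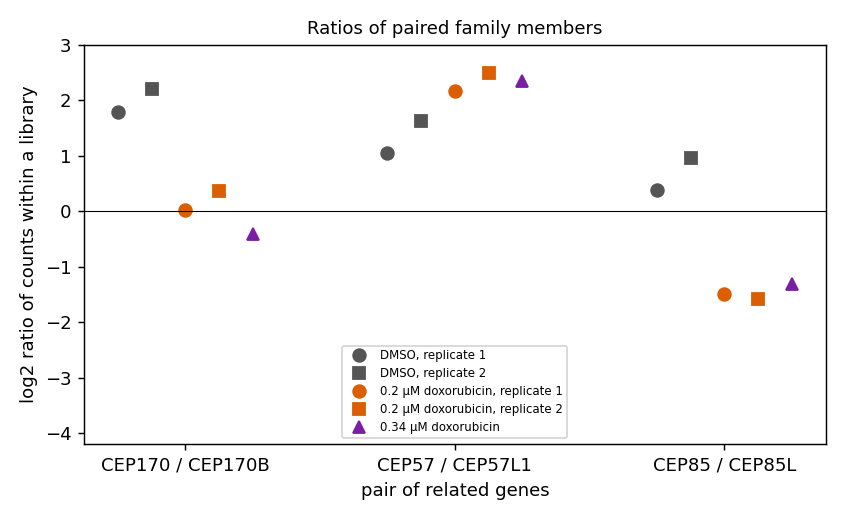
Log2 ratio of the counts of 3 paralog pairs within each library, with 1 point per library for DMSO, 0.2 μM and 0.34 μM doxorubicin. CEP170/CEP170B and CEP85/CEP85L are lower in the 3 treated libraries and CEP57/CEP57L1 is higher, with differences of -2.00, -2.13 and 1.00.

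The other genes of the pathway were called in 1 direction only. The 67 tested genes outside the list covered centriole duplication, gamma-tubulin and augmin complexes, spindle pole kinases, and linker, appendage and satellite function. EdgeR called 16 of them lower and 0 higher, against 2.73% and 1.29% of all genes tested. The log2 fold change was negative in 54 and positive in 13, with a median of -0.81. DESeq2 called 31 lower and 0 higher, against 7.72% and 6.37% of all genes it tested. Limma voom called 14 and 0, against 367 and 159 of all 14187. The spindle pole and kinase genes had the highest share called by edgeR, 6 of 12, and a median of -1.94. The linker, appendage and satellite genes had 2 of 13, SCLT1 (-1.97) and KIF24 (-1.81), and a median of -0.19.

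PLK4, the kinase that starts centriole duplication, was at 40.1 and 47.1 CPM in DMSO and at 4.25, 5.95 and 2.65 CPM after doxorubicin, a log2 fold change of -3.36 (SE 0.33, edgeR adjusted p = 0.00211). Its value was next to that of STIL, which it phosphorylates. CCP110, the cap protein that works with CEP97, was at 46.7 and 43.2 CPM against 38.9, 44.03 and 44.6 CPM, so its groups overlapped (log2 fold change -0.08, SE 0.15, edgeR adjusted p = 0.757). The other called genes of the group listed under centriole duplication were WDR62 (-2.94), CNTRL (-2.01) and CNTLN (-1.26). WDR62 was at 30.5 and 47.7 CPM in DMSO and at 5.10, 6.24 and 4.02 CPM after treatment. The group is broad, and a place in it does not state the function of a gene.

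TUBG1, the gamma-tubulin from which microtubules grow, went from 108 and 113 CPM to 53.4, 50.9 and 49.5 CPM (log2 fold change -1.11, SE 0.13, edgeR adjusted p = 0.00373), the same size of change as CDK5RAP2. Of the augmin subunits, which branch spindle microtubules, edgeR called HAUS8 (-2.68), HAUS1 (-1.39) and HAUS6 (-1.35) lower. The other HAUS genes also had negative log2 fold changes, from -1.33 (HAUS3) to -0.62 (HAUS4), without an edgeR call. Of the 19 tested gamma-tubulin and augmin genes, edgeR called 4 lower and 0 higher, against 2.73% and 1.29% of all genes tested. The log2 fold change was negative in 15 and positive in 4, with a median of -0.88. TUBG2 was at -0.085 with overlapping groups, and TUBGCP6 was the highest of those without overlap at 0.58, not called.

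The kinases and spindle pole genes had the largest values of the pathway. PLK1, which drives centrosome maturation, was at 208 and 190 CPM in DMSO and at 4.60, 4.45 and 3.83 CPM after doxorubicin (log2 fold change -5.54, SE 0.17, edgeR adjusted p = 0.000136). NEK2, the kinase that dissolves the linker, was at 56.6 and 60.8 CPM against 2.13, 3.28 and 1.49 CPM (log2 fold change -4.69, SE 0.32, edgeR adjusted p = 0.000768). The linker genes CEP250 and CEP68, given above, had values of 0.15 and 0.51. Of other linker genes in the pathway lists, CROCC was at 0.86, LRRC45 at -1.37 and CCDC102B, with few reads, at -1.33. EdgeR called none of these, and DESeq2 called LRRC45 lower (adjusted p = 0.000503). ASPM, a spindle pole protein, fell from 310 CPM in both DMSO libraries to 14.8, 20.7 and 9.81 CPM. AURKA went from 101 and 125 CPM to 7.54, 11.6 and 7.66 CPM, and its activator TPX2 from 415 and 397 CPM to 36.9, 38.3 and 26.3 CPM. TACC3, a partner of AURKA at the spindle, was at 121 and 177 CPM against 22.3, 23.5 and 19.3 CPM. The log2 fold changes of ASPM, AURKA, TPX2 and TACC3 were -4.36, -3.66, -3.59 and -2.78.

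The order of levels within the list, given as CPM per kb of annotated exon, changed with treatment. CEP55 was first in DMSO at 76.1 ± 8.92 (SD, n = 2) and sixth after doxorubicin at 5.22 ± 1.70 (SD, n = 3). CEP170 was next in DMSO at 34.7 ± 10.7 (SD, n = 2), followed by NEDD1 (15.5 ± 1.83), PCM1 (13.6 ± 2.66) and CEP170B (12.98 ± 1.38). The last 3 did not differ beyond their spread. After treatment CEP170B was first at 21.3 ± 2.89 (SD, n = 3), followed by CEP170 at 13.9 ± 2.06, NEDD1 at 10.1 and PCM1 at 8.83. STIL moved from rank 10 of 47 at 5.84 to rank 42 at 0.574 CPM per kb, CENPJ from rank 16 (4.83) to rank 35 (1.09), and SASS6 from rank 23 (3.35) to rank 39 (0.866). CEP128 was already low in DMSO at 1.80 and reached 0.386, rank 45. The DMSO ranks depended on the length used. Per kb of the longest transcript STIL was at rank 12, CENPJ at 19, SASS6 at 35 and NEDD1 at 5, with CEP55 and CEP170 still at 1 and 2. Ranks after doxorubicin were not computed with that length. The median of the 47 genes was 3.31 CPM per kb in DMSO and 1.69 after doxorubicin.

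**Figure D4:**
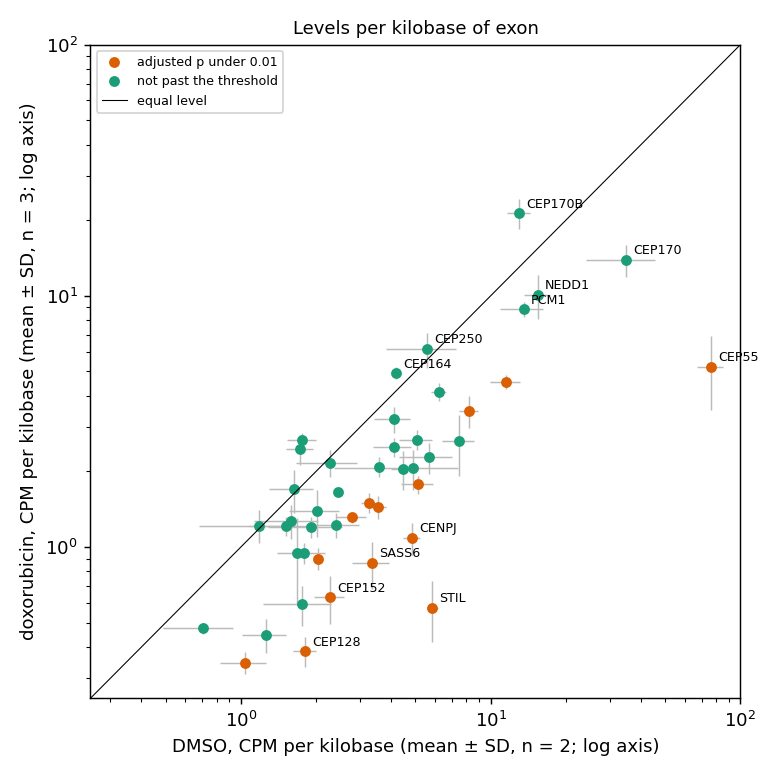
Mean level in CPM per kb of exon in DMSO (x axis, n = 2) and after doxorubicin (y axis, n = 3), both axes logarithmic, with SD bars and 1 point per gene, leaving out CEP295NL and 1 other gene. Most points lie below the line of equal level, CEP55 and STIL farthest below it, and CEP170B lies above.

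The doses did not separate these genes past the threshold. In the contrast of 0.34 μM with 0.2 μM doxorubicin, edgeR called 0 of 46 genes and 0% of all genes tested (22 genes at an unadjusted p of 0.05), and DESeq2 and limma voom called 0 of the 46 as well. At an unadjusted p of 0.05 edgeR and DESeq2 each had 1 gene of the list and limma voom 0. By edgeR that gene was CEP55, with a log2 difference of -0.80 (SE 0.30, unadjusted p = 0.0326, adjusted p = 1), and STIL came next at -0.72 (SE 0.32, unadjusted p = 0.0591). Against DMSO, CEP55 had a log2 fold change of -3.64 at 0.2 μM and -4.44 at 0.34 μM, and STIL of -3.15 and -3.86. The 0.34 μM library lay below both 0.2 μM libraries in 22 of 46 genes (47.8%) and above both in 9 (19.6%), against 28.9% and 23.7% of all genes. Among genes called lower it lay below both in 9 of 14 of the list (64.3%) and in 305 of all 388 (78.6%). With 1 library at 0.34 μM, dose and library cannot be told apart.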

How the data were processed

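Poly-A RNA of 5 RPE1 libraries was sequenced as 75-base read pairs from stranded libraries. The deposited values are raw read counts per gene, made by the authors with STAR on hg38 and with featureCounts of Rsubread on an iGenomes annotation. Tool versions, strandedness of the counting and treatment of multimapping reads were not given in the sources used here. A further table with the authors' own DESeq2 mean counts, log2 fold changes, standard errors, statistics and p-values was not used.

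Counts were tested in R 4.3.3 with edgeR 4.0.16 (quasi-likelihood test, TMM, default filter with a minimum count of 10 and total of 15), the 3 doxorubicin libraries against the 2 DMSO libraries, with Benjamini-Hochberg adjustment over 14187 genes and a threshold of 0.01. Doses were compared as a contrast in a fit of 3 conditions. Each SE was obtained from the fold change and the F statistic. CPM values are TMM-normalized. Levels per kb used exon unions of GENCODE v44 lifted to GRCh37. Promoters came from RefSeq (GRCh38.p14), and gene positions from the same annotation. Alternatives were DESeq2 1.42.0, limma 3.58.1 voom, other scalings and filters, an adjusted p of 0.05, single doses, thinning to the smallest total, a replicate block and leaving out each library. The comparison of 3 against 2 libraries was tested on simulated data with edgeR, DESeq2 and limma voom.

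Totals were 23773061 to 36725345 reads. The chi-square per degree of freedom between replicates was 117 for DMSO and 75.3 for 0.2 μM, so no libraries were copies. The genes and lists were chosen with earlier results of these data known, from general knowledge. Values in every library are given for genes past the threshold, the 3 highest and 3 lowest log2 fold changes, 15 core genes, 10 genes of the pathway lists, the 2 smallest p-values between doses and 3 paralog pairs. The values of 1 gene of the list are not reported here, though it is in the counts and medians. The other genes of the list named here were chosen after their values were seen.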

Additional observations from a re-analysis of the deposited data

How the results depend on the processing

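All 14 genes called lower kept a negative log2 fold change under each of the 16 alternatives run across all genes, and no named gene reversed its call. Of the alternative values of named genes, 481 kept their side of the threshold, 113 lost the call and 18 gained it. Genes of the whole table past the threshold numbered 571, against 2026 with DESeq2, 1020 without a filter, 1927 at an adjusted p of 0.05, 178 with the 0.2 μM libraries alone, 171 and 89 for 0.2 and 0.34 μM in the fit of 3 conditions, and 49 to 215 when 1 library was left out. The count of centrosome and centriole genes called lower, 14, became 27 with DESeq2, 26 at 0.05, 3 with the 0.2 μM libraries alone, 2 for either dose in the fit of 3 conditions, and 0 to 4 without 1 library. The count called higher became 1 with DESeq2 and 1 at 0.05. The replicate block gave 1546 genes and 22 of the list called lower, the 14 among them. The labels do not say what a replicate number shares, and only 2 pairs exist: differences between replicates correlated at 0.528 between DMSO and 0.2 μM across genes, so the block is a description. Promoters of the list with a CHR match numbered 9 within 100 bases and 15 in the whole window, and the median DMSO level per kb was 3.31 and, with the longest transcript, 4.88. Signs changed for CEP120, CEP126, CEP250, CEP63 and CEP95, none of them called. Why counts differ between tools was not tested. With 2 DMSO libraries, small changes were not detectable.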
